A study of Mus musculus with 13 samples.

Results

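The messages of the matrix metalloproteases (MMPs), the ADAMTS proteases and the tissue inhibitors of metalloproteases (TIMPs) were followed through 13 RNA sequencing libraries of mouse embryo fibroblasts. Members were picked by gene symbol alone: Mmp and a number with an optional a or b, Adamts and a number, and Timp1, Timp2, Timp3 and Timp4. This gave 46 of the 43629 genes counted, of which 23 were MMPs, 19 ADAMTS proteases and 4 TIMPs. MMPs are zinc-dependent enzymes, secreted or held in the cell membrane, that cut collagens, other matrix proteins and signalling proteins, and most are made as inactive precursors. ADAMTS proteases are secreted zinc enzymes with thrombospondin-type repeats, among them enzymes that trim procollagens and enzymes that cleave the large proteoglycans aggrecan and versican. TIMPs bind the active site of these enzymes and block it, and fibroblasts are a main source of all 3 families in connective tissue.

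The study asked which RNAs are clients of IMP1 (gene Igf2bp1) and of IMP2 (gene Igf2bp2), related proteins that bind messenger RNAs in the cytoplasm. In RNA immunoprecipitation (IP), an antibody pulls down a protein together with its RNA, and the series holds 3 IP libraries for IMP1, 3 for IMP2 and 3 for control immunoglobulin (IgG), which gives the background. The series also has 1 total RNA library each of wild-type cells labelled IMP1 WT, cells deleted for IMP1 (IMP1 KO), wild-type cells labelled IMP2 WT and cells deleted for IMP2 (IMP2 KO). All 13 libraries are labelled E12.5 fibroblasts, grown in serum-containing medium with no further agent named. The genotype of the cells used in the IPs, how the deletions were made, whether a line is 1 clone, and whether the 3 IP libraries of a group come from separate cultures are not given in the sources used here. P-values therefore measure the spread between these libraries, which may be technical.

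Libraries held 11430002 to 21756430 gene counts, and levels below are CPM, counts relative to the library total after TMM (trimmed mean of M values) scaling, scaled within the 9 IP libraries and, separately, within the 4 total RNA libraries. An IP level is thus a share of that library's RNA. Of 13 fibroblast markers, 13 reached 1 CPM in every total RNA library and 11 in each IP group, where Fap and Lum stayed under 1 CPM. Igf2bp1 went from 32.3 CPM in IMP1 WT to 3.21 in its knockout, and Igf2bp2 from 149 CPM in IMP2 WT to 28.2 in its knockout, so reads of each targeted gene remained. IgG IP stood apart in composition: 24.2% to 25.2% of its reads lay outside annotated genes, against 4.43% to 7.67% in the other 10 libraries. The members held 0.369% to 0.375% of gene counts in IgG IP, 0.315% to 0.322% in IMP1 IP, 0.522% to 0.544% in IMP2 IP, and total RNA held 0.684% to 0.827%. Transcript lengths were not used here, so levels are compared between libraries for one gene and not between genes.

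Of the 46 members, 28 passed the count filter of the IP test (14 MMPs, 11 ADAMTS proteases and 3 TIMPs). The other 18 had at most 13 counts (0.768 CPM) in any IP library, 5 of them had 0 counts in all 9 IP libraries, and Mmp1a, Mmp7, Mmp20 and Adamts19 had 0 counts in all 13. A count of 0 allows up to 3 counts, which is 0.123 to 0.255 CPM in an IP library and 0.178 to 0.254 CPM in total RNA. The remaining untested members were Mmp1b, Mmp8, Mmp12, Mmp21, Mmp25, Mmp27, Adamts8, Adamts13, Adamts15, Adamts16, Adamts17, Adamts18, Adamts20 and Timp4. A filter by counts keeps a low gene more readily where 1 group is high, so counts over the 28 describe the tested genes and not the whole of the 3 families.

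In the IPs, the 3 families differed in how they divided between IMP1 and IMP2. Set directly against each other, IMP1 IP was lower than IMP2 IP for 3 of 3 tested TIMPs under every scaling tried, and higher for 11 of 11 tested ADAMTS genes, or 7 of 11 when libraries were scaled by total count. The MMPs divided, with 3 of 14 higher, 1 lower and 10 not past the threshold, but 0 higher and 6 lower under total count scaling. Over all 28 members, 14 were higher and 4 lower by edgeR's quasi-likelihood test (adjusted p under 0.05 over 14076 genes), so that 18 of 28 passed where 71.4% of all tested genes did (34.1% higher and 37.3% lower). The median log2 fold change of IMP1 IP over IMP2 IP was 0.52 for ADAMTS genes, 0.03 for MMPs and -0.85 for TIMPs, beside -0.01 for all genes tested. The IMP1 and IMP2 libraries did not overlap for 18 of 28 members, beside 73.2% of all genes. Total count scaling moved the median of all genes to -0.34 and the share of calls that were higher from 47.7% to 27.8%, and directions below are relative to the TMM scale unless stated.

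**Figure D1:**
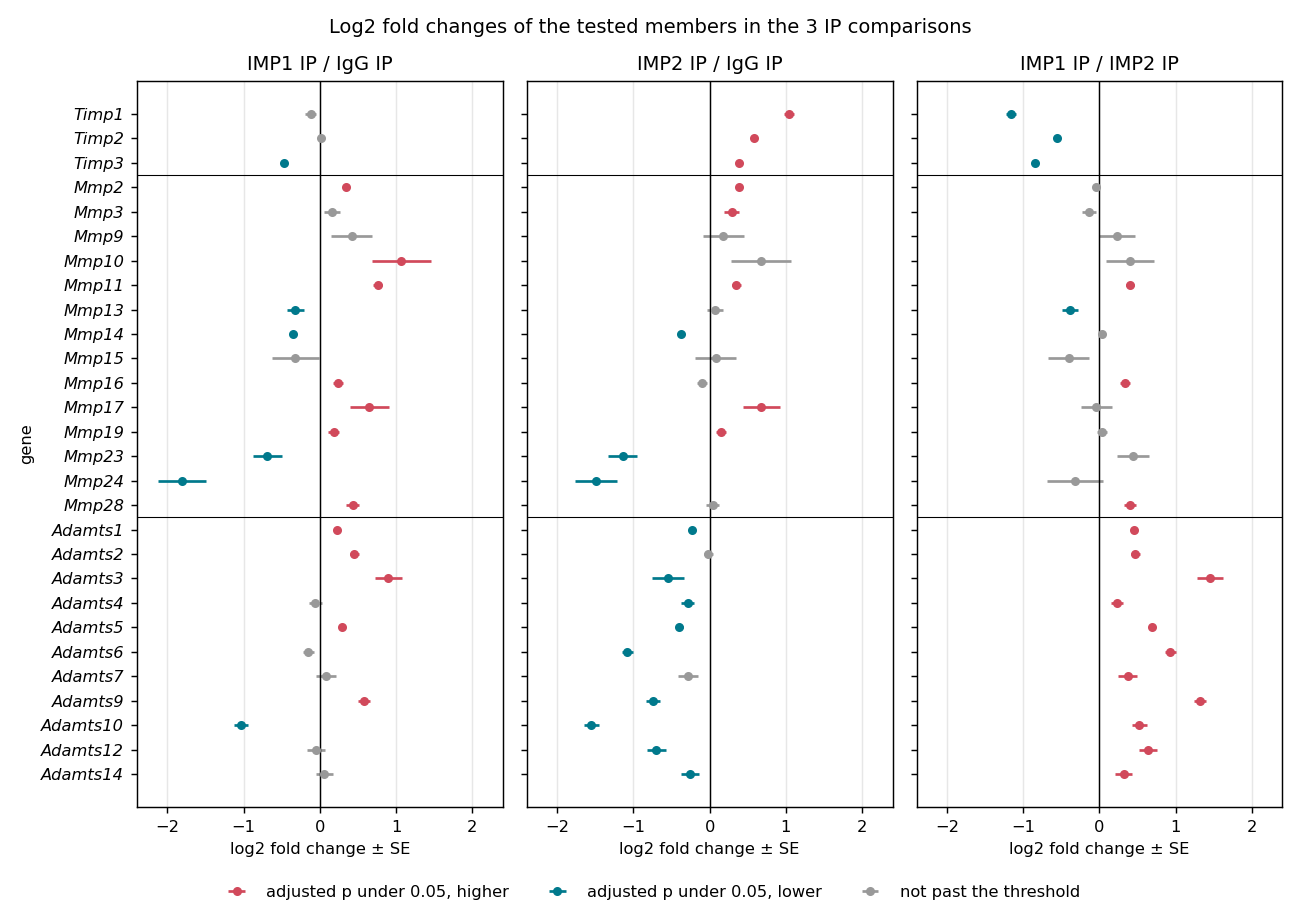
Log2 fold change with its standard error (x axis) for each of the 28 tested members (y axis) in IMP1 IP over IgG IP, IMP2 IP over IgG IP and IMP1 IP over IMP2 IP, coloured by direction where adjusted p was under 0.05. In the IMP1 over IMP2 panel all 11 ADAMTS genes lie to the right of 0 (0.23 to 1.45) and all 3 TIMPs to the left (-1.16 to -0.56), while with total count scaling 7 of the 11 ADAMTS genes still pass and Adamts4 and Adamts14 lie just left of 0.

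Each protein was also set against IgG, which both comparisons share as their control, so their values are given side by side and not compared with each other. Against IgG, IMP1 IP was higher for 12 and lower for 6 of 28 members, where 63.6% of all genes passed (31.7% higher and 31.9% lower), and the libraries did not overlap for 19 of 28 beside 69.6% of all genes. IMP2 IP was higher for 8 and lower for 12 of 28, where 77.6% of all genes passed (40.3% higher and 37.3% lower), without overlap for 20 of 28 beside 78.3% of all genes. At least 2-fold changes past the threshold were seen for 3 members with IMP1 and 5 with IMP2, where 12.9% and 20.4% of all genes were that far apart. The shares of members called are near those of all genes, so the counts as such do not set the 3 families apart. The median log2 fold change of all genes against IgG was -0.03 for IMP1 IP and 0.04 for IMP2 IP with TMM, -0.20 and -0.14 with upper quartile scaling, and -0.18 and 0.21 with total count scaling. The share of calls that were higher was 49.8% for IMP1 IP with TMM, 31.6% with upper quartile and 33.3% with total count scaling, and for IMP2 IP it was 51.9%, 39.9% and 62.2%.

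Marker levels also differed between the IP groups. The summed macrophage list stood at 12.7 to 13.4 CPM with IgG, 8.92 to 9.6 with IMP1 and 15.5 to 16.7 with IMP2, with 3 of 10 markers at 1 CPM or more in each group and Adgre1, Fcgr1, C1qa, C1qb and Tyrobp at 0 counts in all 9. Its members did not move as one: Lyz2 stood at 1.79 to 2.15 CPM with IgG and 6.29 to 6.76 with IMP2, and Csf1r at 3.19 to 4.69 and 2.05 to 2.22. The 6 chondrocyte markers summed to 115 to 120 CPM with IgG, 83.7 to 85.5 with IMP1 and 102 to 110 with IMP2, and Matn1 and Col9a1 had 0 counts throughout. Sox9 made up nearly all of that sum, at 111 to 116, 78.4 to 81.7 and 99.3 to 108 CPM, while Col2a1 was at 1.87 to 2.81, 2.60 to 4.29 and 2.22 to 2.38 CPM. The part of these markers, and of the reads outside genes in IgG IP, in the IP results was not tested.

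Timp1 (chromosome X, 20870166 to 20874737, GRCm38.p6) encodes a secreted inhibitor of most soluble MMPs. Its level was 22.4, 23.4 and 22.2 CPM with IgG, 21.6, 21.6 and 19.4 with IMP1, and 43.4, 49.4 and 46.6 with IMP2. All 3 IMP2 libraries lay above the 6 others, and the IMP1 libraries lay just below the IgG ones without overlap. The log2 fold change was 1.04 for IMP2 over IgG (SE 0.0667, adjusted p = 4.67e-12) and -1.16 for IMP1 over IMP2 (SE 0.0652, adjusted p = 3.24e-13). For IMP1 over IgG it was -0.12 and missed the threshold (adjusted p = 0.179), but with upper quartile scaling it was -0.29 and with total count scaling -0.27, both past it. Timp1 overlaps the gene Syn1, which had 44 to 123 counts in the IP libraries, against 274 to 1136 for Timp1. Without knowledge of strand in the counting, reads of such a pair cannot be told apart.

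Timp2 (chromosome 11, 118301061 to 118355411) encodes the inhibitor that also helps membrane-bound MMP14 to activate the precursor of MMP2. It was at 1478, 1522 and 1449 CPM with IgG, 1451, 1524 and 1523 with IMP1, and 2142, 2235 and 2272 with IMP2. The IgG and IMP1 libraries overlapped, and all 3 IMP2 libraries were higher. The log2 fold change was 0.58 for IMP2 over IgG (SE 0.0328, adjusted p = 5.95e-13) and -0.56 for IMP1 over IMP2 (SE 0.0327, adjusted p = 5.58e-13). For IMP1 over IgG it was 0.02 (adjusted p = 0.689), and with upper quartile and total count scaling it was -0.15 and -0.14, past the threshold on the other side of 0.

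Timp3 (chromosome 10, 86300412 to 86349505) encodes the inhibitor that stays bound to the matrix and also blocks several ADAMTS and ADAM proteases. Its 3 groups were fully apart, with 1064, 1057 and 1055 CPM with IgG, 763, 755 and 775 with IMP1, and 1330, 1383 and 1417 with IMP2. It was the one member lower with IMP1 and higher with IMP2, at log2 fold changes against IgG of -0.47 (SE 0.0311, adjusted p = 1.44e-11) and 0.38 (SE 0.0308, adjusted p = 2.62e-10). IMP1 over IMP2 came to -0.85 (SE 0.031, adjusted p = 1.41e-16). Timp3 overlaps Syn3, which had 4 to 75 counts in the IP libraries. The fourth TIMP, Timp4, had at most 0.072 CPM in any IP library.

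**Figure D2:**
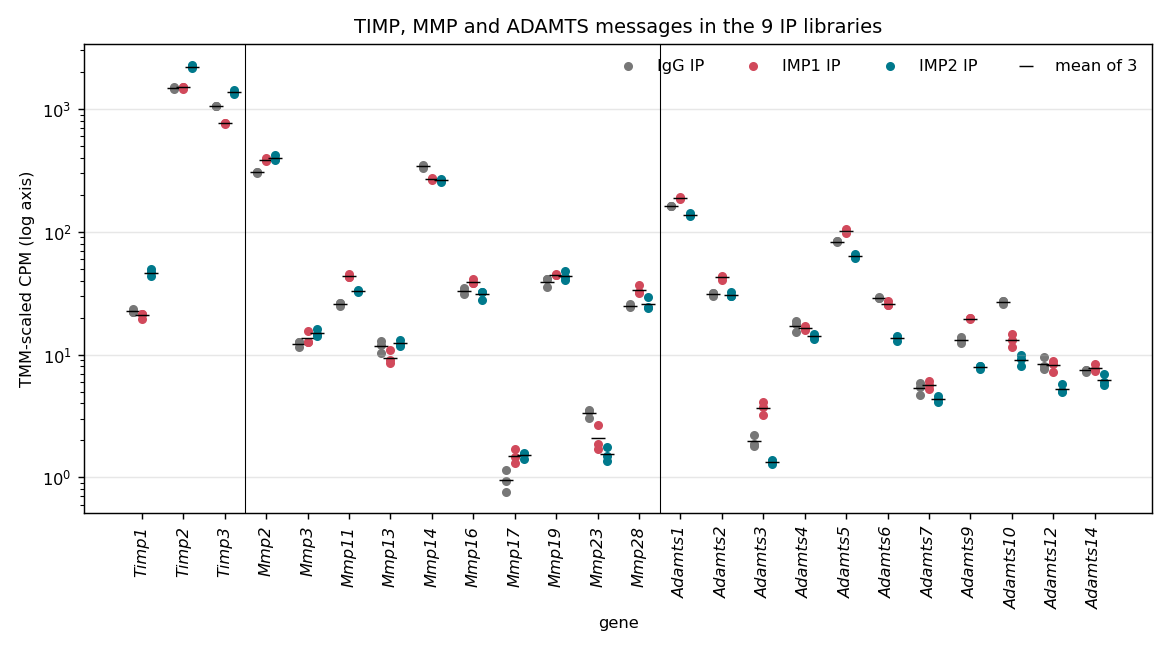
TMM-scaled CPM on a log axis (y) of the 24 tested members that reached 10 CPM in at least 1 of the 13 libraries (x), with 1 point per IP library, coloured by antibody, and a line at the mean of 3. Points of the IMP2 IP stand highest for Timp1, Timp2 and Timp3, and the IMP1 IP points stand above the IMP2 IP points for every ADAMTS gene on this scale, whereas with total count scaling Adamts4 and Adamts14 turn to log2 fold changes of -0.09 and -0.01.

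Among the MMPs, the message of the gelatinase Mmp2 rose with both proteins. Mmp2 (chromosome 8, 92827290 to 92853421), whose product cuts type IV and denatured collagen, was at 308, 302 and 308 CPM with IgG, 398, 379 and 381 with IMP1, and 422, 385 and 389 with IMP2. Both antibodies gave values above all IgG libraries, and the IMP1 and IMP2 libraries overlapped. The log2 fold change was 0.34 for IMP1 (SE 0.0373, adjusted p = 6.32e-08) and 0.38 for IMP2 (SE 0.0371, adjusted p = 5.03e-09). Between IMP1 and IMP2 it was -0.04 (SE 0.0364, adjusted p = 0.291), and -0.37 with total count scaling, past the threshold.

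Mmp14 (chromosome 14, 54431598 to 54442456), the membrane-bound protease that activates the MMP2 precursor, fell in both IPs. It was at 332, 346 and 348 CPM with IgG, 264, 272 and 270 with IMP1, and 271, 253 and 263 with IMP2. All 6 antibody libraries lay below the IgG libraries, and those of IMP1 and IMP2 overlapped. The log2 fold changes against IgG were -0.35 (SE 0.0352, adjusted p = 1.54e-08) and -0.38 (SE 0.0349, adjusted p = 1.74e-09). Between IMP1 and IMP2 the value was 0.03 (adjusted p = 0.379), with -0.29 and a call under total count scaling.

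Mmp11 (chromosome 10, 75923221 to 75932502), stromelysin-3, a protease that furin activates inside the cell, was the one member higher in both IPs and higher with IMP1 than with IMP2. It was at 26.6, 26.3 and 24.8 CPM with IgG, 45.0, 43.2 and 42.7 with IMP1, and 32.7, 32.4 and 33.7 with IMP2. No libraries of different groups overlapped. The log2 fold change was 0.76 for IMP1 over IgG (SE 0.0597, adjusted p = 2.69e-10), 0.35 for IMP2 over IgG (SE 0.0599, adjusted p = 1.64e-05) and 0.40 for IMP1 over IMP2 (SE 0.0543, adjusted p = 6.69e-07). The last of these was 0.08 with total count scaling and did not pass.

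Mmp13 (chromosome 9, 7272514 to 7283333), collagenase-3, was the one MMP lower with IMP1 than with IMP2. It was at 12.9, 10.3 and 12.0 CPM with IgG, 9.04, 8.53 and 10.8 with IMP1, and 11.8, 13.2 and 12.2 with IMP2. IMP1 libraries lay below IMP2 libraries without overlap (log2 fold change -0.39, SE 0.103, adjusted p = 0.00172), while the IgG and IMP1 libraries overlapped. Its call against IgG (-0.32, adjusted p = 0.0163) was lost when IgG replicate 1 or 3 or IMP1 replicate 1 or 2 was left out, with values of -0.30 to -0.24 and adjusted p of 0.0554 to 0.109, and with DESeq2's Wald test (adjusted p = 0.0748).

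Mmp28, epilysin, and Mmp16, a membrane-type MMP, were higher with IMP1 than with either IgG or IMP2. Mmp28 ranged from 24.4 to 25.9 CPM with IgG, 32.0 to 36.7 with IMP1 and 23.9 to 29.5 with IMP2, and Mmp16 from 30.9 to 35.1, 38.0 to 40.9 and 28.0 to 32.6. IMP1 over IMP2 was 0.40 for Mmp28 (adjusted p = 7.65e-05) and 0.33 for Mmp16 (adjusted p = 0.000105), and 0.07 and 0.01 with total count scaling, neither past the threshold. Against IgG they stood at 0.43 and 0.24 with IMP1, the latter 0.07 and 0.08 and not past with upper quartile and total count scaling, and at 0.04 and -0.10 with IMP2, which did not pass (adjusted p = 0.687 and 0.208).

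Mmp3, stromelysin-1, which cuts proteoglycans and activates other MMPs, was at 11.4 to 12.7 CPM with IgG, 12.7 to 15.5 with IMP1 and 14.3 to 16.2 with IMP2. Its IMP2 libraries lay above those of IgG (log2 fold change 0.29, adjusted p = 0.00859), but the call was lost with upper quartile scaling (0.11) and with DESeq2's Wald test (0.26). Mmp3 was also lower with IMP1 than with IMP2 without IMP1 replicate 1 (-0.25, adjusted p = 0.0286) but not with all libraries (-0.14, adjusted p = 0.183). Mmp19 was higher with both proteins by 0.18 and 0.15 (adjusted p = 0.0249 and 0.0397), from 35.7 to 41.3 CPM with IgG to 44.2 to 45.4 and 40.3 to 47.7. Its call with IMP1 was lost without IgG replicate 2 (0.12) or IMP1 replicate 2 (0.18), and that with IMP2 without IgG replicate 2 (0.10), IMP1 replicate 3 (0.14) or IMP2 replicate 3 (0.10). The IMP1 call of Mmp19 was also lost with upper quartile (0.01) and total count scaling (0.03). Its IMP2 call was also lost with upper quartile scaling (-0.03), DESeq2's Wald test (0.12), DESeq2's size factors (0.09) and only the libraries compared (0.11).

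The low MMP messages gave calls that rest on few reads. Mmp17, a membrane MMP held by a lipid anchor, had 0.763 to 1.15 CPM with IgG, 1.299 to 1.71 with IMP1 and 1.42 to 1.58 with IMP2. It passed at 0.65 with IMP1 and 0.68 with IMP2, but no longer without IgG replicate 2 (0.65), IgG replicate 3 (0.51), IMP1 replicate 1 (0.67) or IMP1 replicate 2 (0.56) for IMP1, or without IgG replicate 3 (0.55) for IMP2. Neither call of Mmp17 passed with upper quartile scaling (0.48 and 0.51) or DESeq2's Wald test (0.66 and 0.65). Mmp23 fell from 3.02 to 3.54 CPM with IgG to 1.71 to 2.65 with IMP1 (log2 fold change -0.69, adjusted p = 0.00324) and 1.36 to 1.76 with IMP2 (-1.14, adjusted p = 1.5e-05). IMP1 over IMP2 was 0.44 for Mmp23 and missed the threshold (adjusted p = 0.0592), and passed without IMP1 replicate 1 (0.56) or IMP2 replicate 1 (0.52). Mmp24, a membrane-type MMP with 5 to 24 counts per IP library, fell by 1.81 with IMP1 and by 1.49 with IMP2 on the log2 scale (adjusted p = 3.51e-05 and 5.47e-05), and Mmp10, stromelysin-2, with 4 to 18 counts, was higher with IMP1 (1.07, adjusted p = 0.0207). Mmp9 and Mmp15 passed in none of the 3 comparisons, which does not show that their levels were alike.

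Calls against IgG differed among the ADAMTS genes. Adamts1, Adamts3, Adamts5 and Adamts9 were higher with IMP1 and lower with IMP2 against IgG. Adamts4, Adamts6, Adamts12 and Adamts14 did not pass with IMP1 and were lower with IMP2, Adamts2 was higher with IMP1, Adamts10 was lower with both, and Adamts7 did not pass against IgG. In numbers, IMP1 was higher for 5 and lower for 1 of 11 (median 0.08), beside 31.7% higher and 31.9% lower over all genes. IMP2 was lower for 9 and higher for 0 of 11 (median -0.40), or lower for 5 and higher for 1 with total count scaling, beside 37.3% lower and 40.3% higher over all genes. The shares called in either direction, 54.5% and 81.8%, lie near the 63.6% and 77.6% of all genes.

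Adamts9 (chromosome 6, 92772699 to 92944450), whose product cleaves versican, was at 12.45, 13.1 and 13.9 CPM with IgG, 19.9, 19.7 and 19.4 with IMP1, and 8.02, 7.61 and 8.05 with IMP2. The 3 groups were fully apart, with IMP1 on top and IMP2 at the bottom. The log2 fold change was 0.58 for IMP1 over IgG (SE 0.0815, adjusted p = 2.1e-06), -0.74 for IMP2 over IgG (SE 0.0897, adjusted p = 1.45e-07) and 1.32 for IMP1 over IMP2 (SE 0.0816, adjusted p = 1.82e-12).

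Adamts3 (chromosome 5, 89673841 to 89883668), a procollagen-trimming enzyme that also serves in the activation of the lymphatic growth factor VEGF-C, showed the same order at a low level. It was at 2.23, 1.79 and 1.87 CPM with IgG, 4.08, 3.73 and 3.22 with IMP1, and 1.36, 1.28 and 1.40 with IMP2. The groups did not overlap, and IMP1 over IMP2 was 1.45 (SE 0.171, adjusted p = 9.83e-08), which is 2.73-fold. IMP1 over IgG was 0.90 (SE 0.177, adjusted p = 0.000138). The call of IMP2 against IgG (-0.55, adjusted p = 0.0201) was lost without IgG replicate 1 (-0.44, adjusted p = 0.118) or IMP2 replicate 2 (-0.49, adjusted p = 0.0585). That call was also lost with DESeq2's Wald test (-0.58, adjusted p = 0.092), total count scaling (-0.38) and no count filter (-0.46).

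Adamts5 (chromosome 16, 85858157 to 85901125), a main aggrecan-cleaving enzyme, was at 82.5, 83.5 and 83.8 CPM with IgG, 98.8, 105 and 102 with IMP1, and 62.1, 61.4 and 66.0 with IMP2. Its neighbour Adamts1 (chromosome 16, 85793827 to 85803113), which cleaves versican, was at 162, 163 and 162 CPM with IgG, 188, 185 and 193 with IMP1, and 136, 136 and 142 with IMP2. For both genes the groups lay apart in the order IMP1, IgG, IMP2. IMP1 over IMP2 was 0.69 for Adamts5 (SE 0.0432, adjusted p = 2.3e-12) and 0.45 for Adamts1 (SE 0.0352, adjusted p = 9.85e-11). Against IgG, Adamts5 stood at 0.29 with IMP1 and -0.40 with IMP2 and Adamts1 at 0.22 and -0.23, each past the threshold, though Adamts1 with IMP1 was 0.05 with upper quartile and 0.07 with total count scaling, and with IMP2 -0.06 with total count scaling, all 3 not past.

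Adamts6 and Adamts10 encode a closely related pair that acts on fibrillin microfibrils. Adamts6 was at 28.6, 29.7 and 28.6 CPM with IgG, 25.5, 27.5 and 25.2 with IMP1, and 13.9, 12.9 and 14.2 with IMP2. Adamts10 was at 27.1, 25.8 and 27.2 CPM with IgG, 11.5, 13.1 and 14.7 with IMP1, and 9.15, 8.14 and 9.98 with IMP2. IMP2 libraries were the lowest for both genes, but the IMP1 libraries of Adamts6 lay near IgG and those of Adamts10 near IMP2. The log2 fold change with IMP2 over IgG was -1.08 for Adamts6 (adjusted p = 7.17e-12) and -1.55 for Adamts10 (adjusted p = 1.39e-12). With IMP1 it was -0.15 for Adamts6 (adjusted p = 0.0536), which passed without IMP1 replicate 2 (-0.18, adjusted p = 0.045), with the IgG and IMP1 libraries fitted alone and with 3 other scalings (-0.32 to -0.16), and -1.03 for Adamts10 (adjusted p = 1.83e-09). IMP1 over IMP2 was 0.93 for Adamts6 (adjusted p = 5.7e-11) and 0.52 for Adamts10 (adjusted p = 6.89e-05), the latter 0.20 and not past with total count scaling.

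Adamts2, the main enzyme that removes the amino-terminal propeptide of fibrillar procollagen, ranged from 30.2 to 31.9 CPM with IgG, 40.9 to 43.9 with IMP1 and 30.0 to 32.1 with IMP2. Only its IMP1 libraries stood apart, at 0.45 over IgG (SE 0.0594, adjusted p = 8.45e-07) and 0.47 over IMP2 (SE 0.056, adjusted p = 1.07e-07), and IMP2 over IgG was -0.02, or -0.20 with upper quartile and 0.15 with total count scaling, both past the threshold. Adamts12 ranged from 7.59 to 9.57 CPM with IgG, 7.21 to 8.91 with IMP1 and 4.97 to 5.80 with IMP2, with IMP2 below the others (-0.70 against IgG, adjusted p = 2.73e-05). Adamts4, an aggrecan-cleaving enzyme, ranged from 15.2 to 18.6, 15.8 to 17.1 and 13.3 to 14.8 CPM, Adamts7 from 4.68 to 5.82, 5.26 to 6.06 and 4.11 to 4.62, and Adamts14 from 7.25 to 7.56, 7.39 to 8.41 and 5.68 to 6.98.

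IMP1 over IMP2 was 0.64 for Adamts12, 0.37 for Adamts7, 0.32 for Adamts14 and 0.23 for Adamts4. Those of Adamts4, Adamts7 and Adamts14 (adjusted p = 0.0178, 0.0106 and 0.0124) did not hold throughout. Adamts4 was at 0.20 without IMP1 replicate 1 and 0.19 without IMP2 replicate 3, Adamts7 at 0.31 without IMP1 replicate 2, and Adamts14 at 0.28 without IMP1 replicate 3 and 0.24 without IMP2 replicate 2, none of them past the threshold. Adamts7 also missed it with DESeq2's Wald test (0.41), and Adamts4 with no count filter (0.20). With total count scaling Adamts4 (-0.09), Adamts7 (0.04) and Adamts14 (-0.01) did not pass. Against IgG, the IMP2 call of Adamts14 (-0.26, adjusted p = 0.0483) was lost in 7 of the 9 fits that left out 1 library, where it came to between -0.27 and -0.17, and remained without IMP1 replicate 3 or IMP2 replicate 3. It was also lost with DESeq2's Wald test (-0.29), total count scaling (-0.08) and no count filter (-0.16). That of Adamts4 (-0.29, adjusted p = 0.0044) was lost without IgG replicate 1 (-0.22, adjusted p = 0.051), with total count scaling (-0.12) and with no count filter (-0.20). Adamts7 with IMP2 (-0.29, adjusted p = 0.0517) passed without IgG replicate 1 (-0.37) or IMP1 replicate 3 (-0.30).

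Genes that work with these proteases were read in the same fit, where of all genes 31.7% were higher and 31.9% lower with IMP1 against IgG, 40.3% and 37.3% with IMP2, and 34.1% and 37.3% with IMP1 over IMP2. Their counts were also taken with upper quartile and total count scaling, which was chosen after the data were seen. Of 17 tested activators and regulators of proteases, 13 were higher and 2 lower with IMP1 against IgG (median 0.38), 11 higher and 5 lower with IMP2 (median 0.29), and 9 higher and 7 lower with IMP1 over IMP2 (median 0.09). Both other scalings gave 11 higher and 4 lower with IMP1 against IgG, and total count scaling gave 6 higher and 9 lower with IMP1 over IMP2 (median -0.23). Pcsk6, a proprotein convertase, and Reck, a membrane inhibitor of MMPs, were higher with IMP1 by 0.89 and 0.86 (adjusted p = 6.53e-13 and 4.46e-09). Bsg, the cell surface inducer of MMPs known as EMMPRIN, was at 302 to 310 CPM with IgG, 325 to 346 with IMP1 and 742 to 806 with IMP2, and was higher with IMP2 over IgG by 1.34 (adjusted p = 4.31e-18). Lrp1, the receptor that takes up proteases bound to inhibitors, stood on the other side at 4640 to 4721, 5946 to 6151 and 2086 to 2419 CPM, with IMP1 over IMP2 at 1.42 (adjusted p = 1.23e-18).

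Of 13 tested ADAM proteases and ADAMTS-like proteins, 10 were higher and 2 lower with IMP1 against IgG, 3 higher and 5 lower with IMP2, and 8 higher and 2 lower with IMP1 over IMP2 (median 0.41). Both other scalings gave 7 higher and 3 lower with IMP1. With IMP2, upper quartile scaling gave 1 higher and 7 lower and total count scaling 6 higher and 4 lower. With IMP1 over IMP2, total count scaling gave 7 higher and 5 lower (median 0.08). Adamtsl3, a secreted relative of the ADAMTS proteins without a protease domain, was higher with IMP1 by 0.69 (adjusted p = 2.54e-13) and lower with IMP2 by 0.47 on the log2 scale (log2 fold change -0.47, adjusted p = 1.53e-10). Adam15 was higher with IMP2 by 0.65 (adjusted p = 5.72e-10), and Adam17, the sheddase that releases tumour necrosis factor, higher with IMP1 by 0.65 (adjusted p = 7.56e-13).

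Of 14 tested matrix substrates, 11 were higher and 3 lower with IMP1 against IgG (median 0.57), 2 higher and 9 lower with IMP2 (median -0.42), and 10 higher and 2 lower with IMP1 over IMP2 (median 0.72). Total count scaling gave 9 higher and 3 lower, 4 higher and 9 lower, and 8 higher and 2 lower in the same comparisons. Versican (Vcan), cleaved by several ADAMTS enzymes, was at 465 to 476 CPM with IgG, 571 to 589 with IMP1 and 210 to 234 with IMP2, with IMP1 over IMP2 at 1.35 (adjusted p = 1.19e-18). Fibrillin-1 (Fbn1) was at 1.61 (adjusted p = 1.26e-19) and fibronectin (Fn1) at 1.2 (adjusted p = 1.09e-18). Biglycan (Bgn), a small proteoglycan, went the other way at -1.66 (adjusted p = 3.86e-18), and decorin (Dcn) was higher with IMP2 over IgG by 1.18 (adjusted p = 2.45e-08).

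Of 14 tested AP-1 and ETS regulators of MMP genes, 4 were higher and 6 lower with IMP1 against IgG (median -0.10), 6 higher and 3 lower with IMP2 (median 0.01), and 6 higher and 5 lower with IMP1 over IMP2 (median -0.03). With IMP2 against IgG, upper quartile scaling gave 6 higher and 7 lower and total count scaling 9 higher and 3 lower. With IMP1 over IMP2, total count scaling gave 0 higher and 10 lower (median -0.35). Fosl1, an AP-1 subunit, was at 50.9 to 55.9 CPM with IgG, 41.9 to 47.5 with IMP1 and 72.5 to 85.2 with IMP2, and IMP1 over IMP2 was -0.83 (adjusted p = 3.35e-11). Rela, a subunit of NF-kappaB, was at -0.98 (adjusted p = 1.67e-15).

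Total RNA was compared as each knockout with its own wild type. With 1 library per group there is no test, a difference compares 2 libraries, and a gene was counted as apart when it was at least 2-fold apart on a log2 CPM scale with a prior count of 2 and had at least 10 CPM in 1 of the 4 libraries. Of the 46 members, 26 reached that level (10 MMPs, 13 ADAMTS proteases and 3 TIMPs), of which Adamts3, Adamts7, Adamts15, Adamts18 and Mmp3 did so in 1 library only. Where 4 values are given in a row, their order is IMP1 wild type, IMP1 knockout, IMP2 wild type, IMP2 knockout. In IMP1 KO, 8 of 26 members were higher and 6 lower, where 12.8% of all genes were apart (5.2% higher and 7.62% lower). In IMP2 KO, 5 were higher and 5 lower, where 15.4% were apart (7.49% higher and 7.87% lower). Between the wild types, 0 were higher and 2 lower in IMP1 WT, where 0.921% of all genes were apart (0.456% higher and 0.465% lower). In such bulk samples fewer cells of a type and less RNA per cell cannot be told apart.

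**Figure D3:**
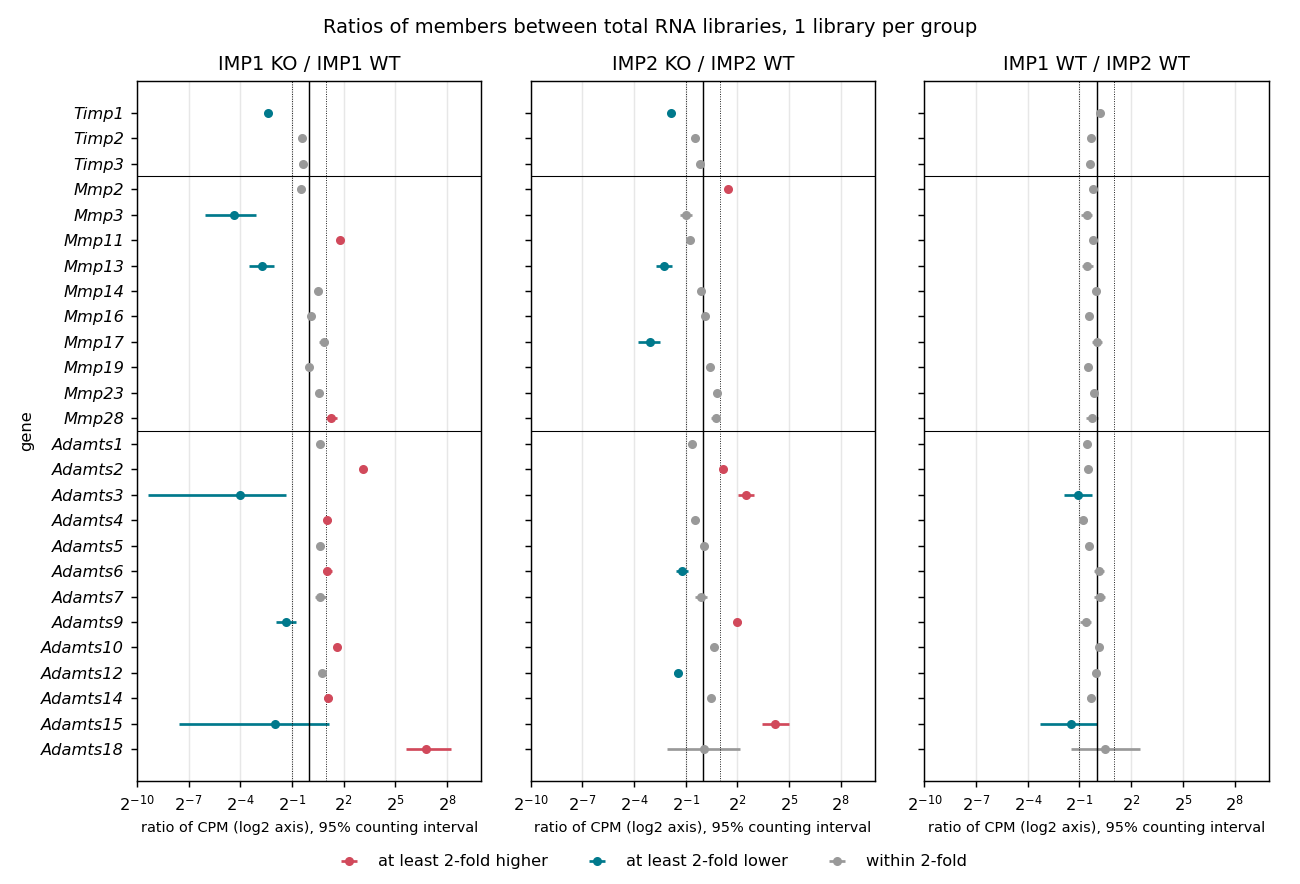
Ratio of CPM with its exact 95% counting interval (x axis, log2 scale) for the 26 members measured in total RNA (y axis) in IMP1 KO over IMP1 WT, IMP2 KO over IMP2 WT and IMP1 WT over IMP2 WT, with dotted lines at 2-fold and 1 library per group. Timp1 and Mmp13 lie left of the 2-fold line in both knockouts, Adamts2 right of it in both, and in the wild types 24 of 26 members lie within 2-fold.

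By gene, Timp1 and Mmp13 were lower in both knockouts, Adamts2 was higher in both, and 4 ADAMTS genes were at least 2-fold apart in opposite directions, of which Adamts3 and Adamts15 reached 10 CPM in IMP2 KO only. Another 10 members were apart in 1 knockout only and 9 in neither. Whether the 2 knockouts differ from each other was not tested.

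Timp1 was at 894 CPM in IMP1 WT and 168 in its knockout, and 779 in IMP2 WT and 213 in its knockout. The 2 wild types stood close together and both knockouts far below, 5.32-fold lower without IMP1 (95% counting interval 5.08 to 5.58) and 3.66-fold lower without IMP2 (3.52 to 3.80). Syn1, which overlaps Timp1, had 17 to 103 counts in these libraries, beside 1987 to 13182 for Timp1. Timp2 was at 3243, 2445, 4057 and 2945 CPM in the same order, 1.33-fold and 1.38-fold lower, and Timp3 at 511, 402, 679 and 591 CPM, 1.27-fold and 1.15-fold lower. Both stayed within the 2-fold limit. The intervals cover counting error only.

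Among secreted MMPs, Mmp13 was low in both knockouts and Mmp3 in IMP1 KO. Mmp13 was at 10.7 CPM in IMP1 WT and 1.61 in its knockout, and 15.4 in IMP2 WT and 3.24 in its knockout, from 157, 19, 260 and 53 counts. It was 6.63-fold lower (4.11 to 11.3) without IMP1 and 4.76-fold lower (3.53 to 6.53) without IMP2. Mmp3 was at 8.75, 0.423, 13.2 and 6.66 CPM, from 129, 5, 222 and 109 counts, 20.7-fold lower (8.64 to 64.8) in IMP1 KO and 1.98-fold lower (1.57 to 2.51) in IMP2 KO, just inside the 2-fold limit. Mmp10 had 6 counts in each wild type and 0 in each knockout, at most 0.407 CPM.

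Mmp13, Mmp3 and Mmp10 lie in a run of 10 MMP genes on chromosome 9 between 7272514 and 7699585 (GRCm38.p6), namely Mmp13, Mmp12, Mmp1b, Mmp3, Mmp1a, Mmp10, Mmp8, Mmp27, Mmp20 and Mmp7. Another of them, Mmp12, was high in IMP2 KO, with 54 counts against 4 in IMP2 WT. AP-1, a dimer of Fos and Jun family proteins, is a textbook activator of this cluster, so the 250 bases before the gene start were searched for the AP-1 site TGANTCA, the same on both strands. RefSeq promoters were matched for 32 of the 46 members. The site was found for 8 of the 10 genes of the cluster and for 0 of the 22 other members, beside 6.75% of all 32851 promoters of that length. The 8 were Mmp3, Mmp7, Mmp10, Mmp12, Mmp13, Mmp1a, Mmp1b and Mmp20. The site began 35 bases before the start of Mmp13, 44 before that of Mmp12, 46 before that of Mmp3 and 63 before those of Mmp10 and Mmp7. Genes with the site thus include Mmp12, which was high in IMP2 KO. They also include Mmp1a, Mmp1b, Mmp7 and Mmp20, which had 0 counts in all 4 total RNA libraries. The motif TATAAA, searched on both strands and unable to overlap a match of the AP-1 site, was present for 9 members and in 12.4% of all promoters. A match is a description of the sequence, and its absence says only that these letters are not in the window.

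The promoters of Mmp13 and Mmp3, and of Timp1, which was lower in both knockouts but has no such site in its window, are shown 5′ to 3′ on the plus strand of GRCm38.p6, ending at the last base before the gene start, with the AP-1 site in capitals. They span chr9:7272264-7272513 for Mmp13, chr9:7445572-7445821 for Mmp3 and chrX:20869916-20870165 for Timp1.
Mmp13: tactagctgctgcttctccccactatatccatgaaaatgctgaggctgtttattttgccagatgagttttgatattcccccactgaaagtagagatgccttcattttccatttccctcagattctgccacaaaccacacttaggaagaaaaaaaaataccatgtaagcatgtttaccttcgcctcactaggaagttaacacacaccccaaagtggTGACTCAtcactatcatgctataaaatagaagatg
Mmp3: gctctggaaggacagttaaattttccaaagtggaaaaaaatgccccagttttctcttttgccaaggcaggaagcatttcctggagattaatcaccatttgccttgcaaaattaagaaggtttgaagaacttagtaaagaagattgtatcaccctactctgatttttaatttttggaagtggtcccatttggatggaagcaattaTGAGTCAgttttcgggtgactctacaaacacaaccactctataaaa
Timp1: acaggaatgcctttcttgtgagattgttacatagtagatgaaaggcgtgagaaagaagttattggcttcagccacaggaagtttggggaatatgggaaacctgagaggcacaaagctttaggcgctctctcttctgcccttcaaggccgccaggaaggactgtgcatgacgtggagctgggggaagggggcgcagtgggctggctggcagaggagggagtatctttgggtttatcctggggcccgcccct

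The AP-1 subunits Fosl1 and Fosl2 were also low in total RNA of both knockouts, and Fos was not. Fosl1 was at 66.6 CPM in IMP1 WT and 5.24 in its knockout, and 38.0 in IMP2 WT and 3.60 in its knockout (log2 ratios -3.63 and -3.35). Jun was at 148, 25.7, 121 and 61.2 CPM (-2.52 and -0.98) and Fosl2 at 303, 85.0, 301 and 122 CPM (-1.83 and -1.3), while Fos was at 9.70, 6.51, 9.43 and 37.8 CPM (-0.57 and 1.99). Of the 13 measured AP-1 and ETS regulators, 0 were higher and 5 lower in IMP1 KO (median -0.57), and 4 higher and 3 lower in IMP2 KO (median -0.54), beside a median of -0.03 for all genes in each knockout. The shares of all genes were 5.2% higher and 7.62% lower in IMP1 KO, and 7.49% and 7.87% in IMP2 KO. The part of these regulators in the lower MMP levels was not tested.

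Of the other MMPs above the 10 CPM limit, Mmp2 and Mmp17 were past 2-fold in IMP2 KO and Mmp11 and Mmp28 in IMP1 KO. Mmp2 was at 705 CPM in IMP1 WT and 497 in its knockout, and 815 in IMP2 WT and 2276 in its knockout, so that IMP2 KO alone stood high, 2.79-fold over its wild type (2.74 to 2.85). Mmp14 was at 775, 1089, 809 and 752 CPM and stayed within 2-fold in both. Mmp17 was at 12.9, 23.0, 12.6 and 1.47 CPM, with IMP2 KO 8.58-fold below its wild type (5.61 to 13.7). Mmp11 was at 53.2, 184, 61.9 and 36.5 CPM and was 3.45-fold higher in IMP1 KO (3.18 to 3.75). Mmp28 was at 8.68, 21.0, 10.4 and 17.3 CPM, 2.42-fold higher in IMP1 KO. Mmp16 (51.8, 56.7, 71.4 and 77.2 CPM), Mmp19 (45.2, 44.5, 64.3 and 84.6 CPM) and Mmp23 (73.2, 107, 81.9 and 142 CPM) were within 2-fold in both knockouts.

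The enzymes that trim procollagen differed from one another. Adamts2 was at 44.7 CPM in IMP1 WT and 393 in its knockout, and 62.4 in IMP2 WT and 138 in its knockout, 8.80-fold (8.11 to 9.57) and 2.21-fold (2.05 to 2.38) higher. Both knockouts stood above both wild types. Adamts3 was at 1.36, 0.0845, 2.85 and 16.1 CPM, from 20, 1, 48 and 263 counts, so that it was 5.64-fold higher in IMP2 KO (4.14 to 7.85) and lower in IMP1 KO at a ratio of 0.0623 (0.0015 to 0.39). It also differed between the wild types, 2.1-fold lower in IMP1 WT. Adamts14 was at 18.2, 38.6, 22.7 and 31.5 CPM and was 2.11-fold higher in IMP1 KO.

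Among the proteoglycan-cleaving enzymes, Adamts9 was at 7.87 CPM in IMP1 WT and 3.13 in its knockout, and 12.3 in IMP2 WT and 49.0 in its knockout, 2.51-fold lower (1.72 to 3.75) without IMP1 and 3.99-fold higher (3.42 to 4.67) without IMP2. Adamts15, which cleaves versican, was at 0.339, 0.0845, 0.949 and 17.1 CPM. Its 18.0-fold higher level in IMP2 KO (10.9 to 32.0) came from 280 against 16 counts, and its lower value in IMP1 KO from 1 against 5 counts, a ratio of 0.249 whose interval of 0.00527 to 2.23 spans 1. Adamts1 (269, 413, 403 and 256 CPM) and Adamts5 (240, 377, 323 and 341 CPM) were within 2-fold in both knockouts. Adamts4 was at 19.7, 41.0, 33.9 and 25.1 CPM, 2.08-fold higher in IMP1 KO.

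Adamts18 was seen in 1 library above the rest. It was at 0.407 CPM in IMP1 WT and 44.3 in its knockout, and 0.297 in IMP2 WT and 0.305 in its knockout, from 6, 524, 5 and 5 counts. It was 109-fold higher in IMP1 KO (49.7 to 298), and all 9 IP libraries had 0 counts of it. Adamts6 was at 14.7, 30.5, 13.3 and 5.74 CPM, 2.08-fold higher in IMP1 KO (1.76 to 2.48) and 2.31-fold lower in IMP2 KO (1.81 to 2.98). Adamts10 was at 42.3, 128, 39.3 and 62.0 CPM, 3.03-fold higher in IMP1 KO (2.76 to 3.33). Adamts12 was at 45.2, 76.1, 46.1 and 16.7 CPM, 2.77-fold lower in IMP2 KO (2.41 to 3.19), and Adamts7 at 9.90, 15.3, 8.84 and 8.06 CPM, within 2-fold in both.

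**Figure D4:**
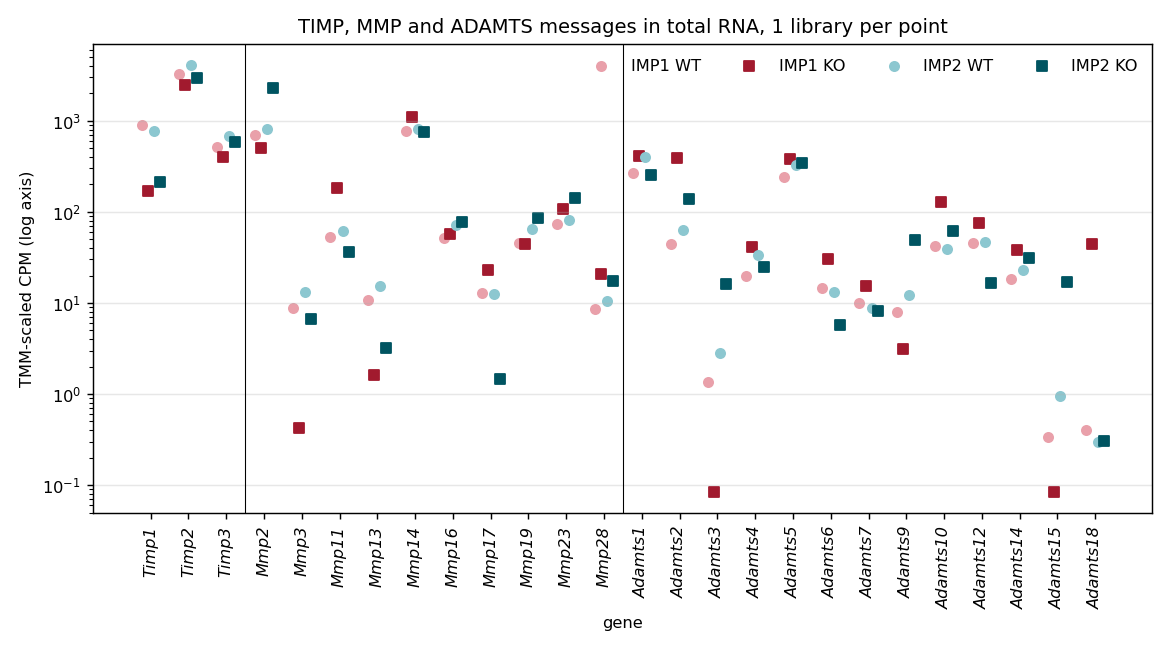
TMM-scaled CPM on a log axis (y) of the 26 members with at least 10 CPM in 1 of the 4 total RNA libraries (x), circles for wild types and squares for knockouts, 1 library per point. Adamts18 stands at 44.3 CPM in IMP1 KO and under 0.41 in the other libraries, and Timp1 at 168 and 213 CPM in the knockouts against 894 and 779 in the wild types.

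Members under 10 CPM were outside these counts, and the following were chosen after their values were seen. In IMP2 KO, Adamts16 had 113 counts against 4 in IMP2 WT, Adamts17 33 against 3, Mmp9, the second gelatinase, 107 against 9, Mmp12, macrophage elastase, 54 against 4, and Timp4 41 against 2. They were 29.1-fold (11.1 to 109), 11.3-fold (3.55 to 57.7), 12.2-fold (6.21 to 27.5), 13.9-fold (5.13 to 52.9) and 21.1-fold (5.48 to 180) higher. In IMP1 KO, Mmp9 had 0 counts against 11 in IMP1 WT, and the 95% counting interval of the ratio ran from 0 to 0.497. Mmp15, a membrane-type MMP, had 67 counts in IMP1 KO against 27 in IMP1 WT, 3.09-fold higher (1.95 to 5.03). Timp4 overlaps Syn2, which had 22 counts in IMP2 KO and 2 in each of the other total RNA libraries.

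Markers of other cell types differed between the total RNA libraries. The 6 chondrocyte markers summed to 11510 CPM in IMP2 KO, beside 250 in its wild type, 408 in IMP1 WT and 165 in IMP1 KO, with 6 of 6 at 1 CPM or more in IMP2 KO, 5 in each wild type and 3 in IMP1 KO. Col2a1, the collagen of cartilage, was at 10570 CPM in IMP2 KO and 161 in IMP2 WT, and Acan, the aggrecan that Adamts4 and Adamts5 cleave, at 247 and 1.66. The 10 macrophage markers summed to 351 CPM in IMP2 KO (10 of 10 at 1 CPM or more), beside 38.0 in its wild type (8 of 10), 28.5 in IMP1 WT (6 of 10) and 11.3 in IMP1 KO (2 of 10), where Ptprc, Adgre1, Itgam, Fcgr1, C1qb and Tyrobp had 0 counts. These lists were high in the library in which Adamts3, Adamts9, Adamts15, Adamts16, Mmp2, Mmp9, Mmp12 and Timp4 were high, and their part in those values was not tested.

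The 6 muscle markers summed to 25.3 CPM in IMP1 WT and 8.71 in its knockout, and 22.9 in IMP2 WT and 0.55 in its knockout. Des made up most of the wild-type sums, at 22.8, 1.775, 20.8 and 0.489 CPM in the same order. Actc1 went the other way in IMP1 KO, at 2.24, 6.93, 1.96 and 0 CPM. The 6 epithelial markers summed to 40.2, 2.03, 12.9 and 3.42 CPM, with Krt19 at 38.9 CPM in IMP1 WT. The 6 endothelial markers summed to 2.79 to 6.11 CPM. The 13 fibroblast markers summed to 29340, 28460, 38840 and 45270 CPM. The muscle and epithelial sums were lower in both knockouts, as Timp1 and Mmp13 were, while Mmp3 was past 2-fold in IMP1 KO only. The part of any of these lists in the values of Timp1, Mmp3 and Mmp13 was not tested.

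Among the partners of the proteases, Plaur was low and Pcsk6 high in both knockouts. Of 18 activators and regulators, 2 were higher and 8 lower in IMP1 KO (median -0.39), and 4 higher and 4 lower in IMP2 KO (median -0.20). Of all genes, 5.2% were higher and 7.62% lower in IMP1 KO, and 7.49% and 7.87% in IMP2 KO. Plaur, the urokinase receptor, was at 201, 30.9, 81.7 and 12.8 CPM (log2 ratios -2.69 and -2.67). Pcsk6 was at 58.0, 582, 48.3 and 133 CPM (3.32 and 1.45), high in both knockouts as Adamts2 was.

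Of 16 measured matrix substrates, 0 were higher and 6 lower in IMP1 KO (median -0.02) and 5 higher and 1 lower in IMP2 KO (median 0.18), beside 5.2% higher and 7.62% lower, and 7.49% higher and 7.87% lower, of all genes. The 5 higher in IMP2 KO were Acan, Col2a1 and Comp, which are also on the chondrocyte marker list, and Dcn and Lum, which are also on the fibroblast marker list. Comp, cleaved by Adamts7 and Adamts12, was at 39.6, 1.099, 64.7 and 140 CPM (-5.01 and 1.11). Of 12 measured ADAM proteases and ADAMTS-like proteins, 1 was higher and 2 lower in IMP1 KO and 3 higher and 2 lower in IMP2 KO. These counts stand beside the same shares of all genes, 5.2% and 7.62% in IMP1 KO and 7.49% and 7.87% in IMP2 KO. Adamtsl1 was at 18.9, 112, 23.7 and 122 CPM (2.56 and 2.36), Adamtsl3 at 42.0, 80.1, 73.3 and 428 CPM (0.93 and 2.54), and Adam19 at 228, 143, 166 and 20.5 CPM (-0.68 and -3.01).

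Set side by side, the IP and the knockout of the same protein gave no single order for the members named here. Timp1, higher with IMP2 over IgG by 1.04, was lower in IMP2 KO (-1.87) and lower by more in IMP1 KO (-2.41), although it did not pass with IMP1. Adamts9, higher with IMP1 by 0.58 and lower with IMP2 (-0.74), was lower in IMP1 KO (-1.29) and higher in IMP2 KO (1.98). Adamts3 stood at 0.90, -0.55, -2.77 and 2.44, though its IMP2 call was lost in several alternatives. Its value in IMP1 KO rests on 1 against 20 counts, and it reached 10 CPM in IMP2 KO only, where it was high. It was also 2.1-fold lower in IMP1 WT than in IMP2 WT. Adamts2, higher with IMP1 by 0.45, was higher in IMP1 KO (3.13), and Mmp11, higher with IMP1 by 0.76, was higher there too (1.78). Mmp2, higher with both proteins, was lower in IMP1 KO (-0.50, within 2-fold) and higher in IMP2 KO (1.48). No test joins the 2 kinds of library, since the knockouts have 1 library each.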

How the data were processed

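The deposited values are raw counts of reads by Ensembl gene, whole numbers, in 9 IP and 4 total RNA libraries of mouse embryo fibroblasts. STAR, HTSeq and mm10 are named in the submitters' processing notes; versions, settings, annotation release and strand handling are not given in the sources used here. Reads of overlapping or antisense genes were not separated beyond the deposited counts. Per the labels' protocols, libraries were made with a TruSeq kit. The 5 tally lines of each file were kept out of totals (reads in no gene: 4.43% to 25.2%).

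Symbols were matched for 42462 of 43629 genes. The 9 IP libraries were fitted together in R 4.3.3 with edgeR 4.0.16 (TMM, default count filter by group, quasi-likelihood F test, 2-sided, Benjamini-Hochberg over 14076 genes, threshold 0.05). The SE is the log2 fold change over the square root of F, and the common coefficient of variation was 3.84%. Total RNA, with 1 library per group, was not tested: log2 ratios of TMM-scaled CPM use a prior count of 2, and ratios carry exact 95% intervals for counting error. Library pairs within a group differed by more than sampling noise (chi-square per degree of freedom 1.13 to 7.41), so none was counted once with another. Positions, promoters and promoter sequences are from RefSeq, GRCm38.p6. The steps were tested on simulated counts in which few genes were raised in 1 group. Such counts do not test the choice of scaling where most genes differ, as between these IPs.

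Every member with at least 10 CPM in 1 of 13 libraries is named, other members where past the threshold, and up to 4 leading genes of each list. One leading gene is not reported here. The members, gene lists and marker lists were chosen with earlier results of these data known. Alternatives were DESeq2 1.42.0 (Wald test, or its size factors), upper quartile and total count scaling, no filter, only the libraries compared, the replicate number as a block, each library left out, and for total RNA a prior count of 0.5, total count scaling and a minimum of 3 CPM.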

Additional observations from a re-analysis of the deposited data

Results flagged for a closer look

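In total RNA, 4 ADAMTS genes lay at least 2-fold apart in opposite directions in the knockouts, each against its own wild type. The log2 ratio of Adamts3 was -2.77 in IMP1 KO and 2.44 in IMP2 KO, and that of Adamts9 was -1.29 and 1.98. Adamts15 was at -1.12 and 3.99, but its IMP1 value rests on 1 against 5 counts, with a counting interval of the ratio (0.00527 to 2.23) that spans 1. Adamts3 and Adamts15 reached the limit of 10 CPM in IMP2 KO only (16.1 and 17.1 CPM), so both entered the count through the library in which they were high. Adamts6 went the other way, at 1.05 in IMP1 KO and -1.19 in IMP2 KO. Each group is 1 library, so the difference between the knockouts was not tested. Chondrocyte markers summed to 11510 CPM and macrophage markers to 351 CPM in the IMP2 KO library, beside 250 and 38.0 in IMP2 WT, and their part in these ratios was not tested.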

How the results depend on the processing

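Scaling moved the IP counts most. Members lower with IMP1 against IgG were 6, and 10 with upper quartile or total count scaling. Under both of these scalings Adamts1, Mmp16, Mmp17 and Mmp19 lost their call as higher with IMP1 against IgG. Members higher with IMP2 against IgG were 8, and 5 with upper quartile scaling or DESeq2's Wald test. With IMP1 over IMP2, 14 were higher and 4 lower, and 7 and 9 with total count scaling. The sign turned for Timp2 with IMP1 over IgG (0.02, but -0.15 with upper quartile and -0.14 with total count scaling), Mmp19 (0.15, but -0.03 with upper quartile) and Adamts2 (-0.02, but 0.15 with total count) with IMP2 over IgG, and, with IMP1 over IMP2 under total count scaling, for Adamts14 (-0.01), Adamts4 (-0.09), Mmp14 (-0.29) and Mmp19 (-0.30). In all other alternatives run, each log2 fold change of a named member that passed kept its sign.

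Leaving out 1 library at a time gave 15 to 18 members past the threshold with IMP1 over IgG (10 to 12 higher, 5 to 6 lower), 18 to 20 with IMP2 over IgG (7 to 8 and 10 to 13) and 17 to 19 with IMP1 over IMP2 (13 to 15 and 4 to 5). Deviations of same-numbered libraries of different IP groups had r of -0.059 to 0.073 across genes, beside -0.052 to 0.051 for differently numbered ones. The highest value was that of IMP1 replicate 1 with IMP2 replicate 1. Such small values cannot decide whether the numbers pair the libraries. With the replicate block, 18, 20 and 18 members passed.

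In total RNA, members higher in IMP2 KO were 5 at a minimum of 10 CPM and 8 at 3 CPM, and the 2 that were lower in IMP1 WT than in IMP2 WT became 1 with total count scaling, since Adamts3 moved to -0.97. Depth limits the calls of Mmp10, Mmp17 and Mmp24 and the ratios of Adamts3 and Adamts15 in IMP1 KO. The cause of the other differences was not tested.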
